A study of Mus musculus with 20 samples.

Results

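The genes described here encode the machinery of translation and of mitochondrial respiration, and they were chosen by the start of their symbols alone: translation initiation factors (Eif), elongation factors (Eef), cytosolic ribosomal proteins (Rpl, and Rps followed by a digit, without the kinases Rps6k), mitochondrial ribosomal proteins (Mrpl, Mrps), subunits and assembly factors of the respiratory chain (Nduf, Sdh, Uqcr, Cox followed by a digit, Atp5) and the mitochondrial protein import machinery (Timm, Tomm). In all, 65 of the 3731 genes with an edited site belonged to them, and they held 237 of the 25978 sites. The rule itself uses symbols and no measured value, but it was set with earlier results of these data known.

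The data map N6-methyladenosine (m6A) in mouse brain through an RNA editor. Mice of the genotype APOBEC1-YTH carry a cytidine deaminase fused to an m6A-binding YTH domain, which converts cytidines next to m6A to uridines. Mice of the genotype APOBEC1-YTHmut, a mutated form of the fusion, are the controls. Tamoxifen was injected intraperitoneally into all animals, controls included, at 20 mg/kg once every 24 h over 5 days, and whole cortex, whole hippocampus and whole cerebellum were taken 7 days after the last injection. The 20 poly(A) RNA libraries comprised 4 APOBEC1-YTH libraries per region from the same 4 animal numbers, and 3 APOBEC1-YTHmut libraries from cortex, 2 from hippocampus and 3 from cerebellum. The promoter and the cell types of transgene expression, and the animals' age and strain, are not stated in the labels. Expression was not measured here, so the tissue labels were not checked against marker genes.

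Each region is represented by 1 list of sites with 1 editing level per site, read as the percentage of edited reads in the APOBEC1-YTH libraries together. No level per animal and no read depth is given. Levels of the APOBEC1-YTHmut controls at these sites were not analysed here. For this reason no difference below has a replicate error or a test, and sites of the same transcript share their reads and are not replicates. A site missing from a list may still be edited: the lists start at 1%, and the depth at which a site could be called is unknown. A lower abundance of a transcript and a lower share of methylated copies cannot be told apart where a site is missing, and neither can fewer cells of a type and less RNA per cell.

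Initiation factors bring the small ribosomal subunit and the initiator tRNA to the start codon, elongation factors move the ribosome along the message, and the ribosome itself is built from small, very abundant proteins. Mitochondria have their own ribosomes, import most of their proteins through the TOM and TIM complexes, and make ATP through the electron transport complexes I to IV and the ATP synthase. Methylation of adenosine in messenger RNA is set in a short consensus around an A followed by C and lies mostly near stop codons and in 3′ untranslated regions; it is read by YTH proteins and is known to influence mRNA decay and translation. Neurons depend on respiration for synaptic function and translate many messages locally in dendrites and axons.

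The sequence around a listed site shows what was measured. A single site of these genes, in Mrpl43 (a protein of the large mitochondrial ribosomal subunit), fell within the reference sequences at hand, and it is shown because it displays the edited base in its context. It lay at chr19:45005529-45005557 (GRCm38.p6, minus strand), and the capitals mark the edited cytidine and the adenosine before it.

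Mrpl43: gctaggtgcagtgACcttgtgaataccct

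The edited cytidine is at position 45005543, 529 nt from the gene's annotated 3′ end, and was listed in cerebellum alone at 2.6%. Across the whole series, 63 listed sites fell within windows from 250 nt before to 50 nt after a RefSeq transcription start. The base at the listed position was C on the listed strand in 63 of 63. It was preceded by A in 63 of 63, and the base before that A was A or G in 63 of 63. The Mrpl43 site has the same arrangement. Whether the site calls required this context is not stated in the sources used here. These counts may thus be fixed by the calling and are no independent sign of methylation.

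The first comparison was how often each family carried a site at all. The reference table holds 375 protein-coding genes whose symbols meet the rule, and 65 of them, 17.3%, had a listed site in any region, against 16.7% of all 21900 protein-coding genes. This near-equal total was made of unequal families. Initiation factors were listed for 16 of 56 genes (28.6%) and held 51.9% of the 237 sites. These 56 genes include 10 regulators with an Eif symbol, of which 1 was listed, with 4 sites. They also include Eif5a, with 1 site, and Eif5a2, with 18, which were classed by symbol although eIF5A acts in elongation. The import machinery was listed for 10 of 26 genes (38.5%) with 34 sites. Cytosolic ribosomal proteins were listed for 4 of 90 genes (4.44%) with 6 sites. Between these lay mitochondrial ribosomal proteins with 14 of 78 genes (17.9%) and 19 sites, respiratory chain genes with 19 of 109 (17.4%) and 45 sites, and elongation factors with 2 of 16 (12.5%) and 10 sites. All of these counts describe 3 pooled lists.

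**Figure D1:**
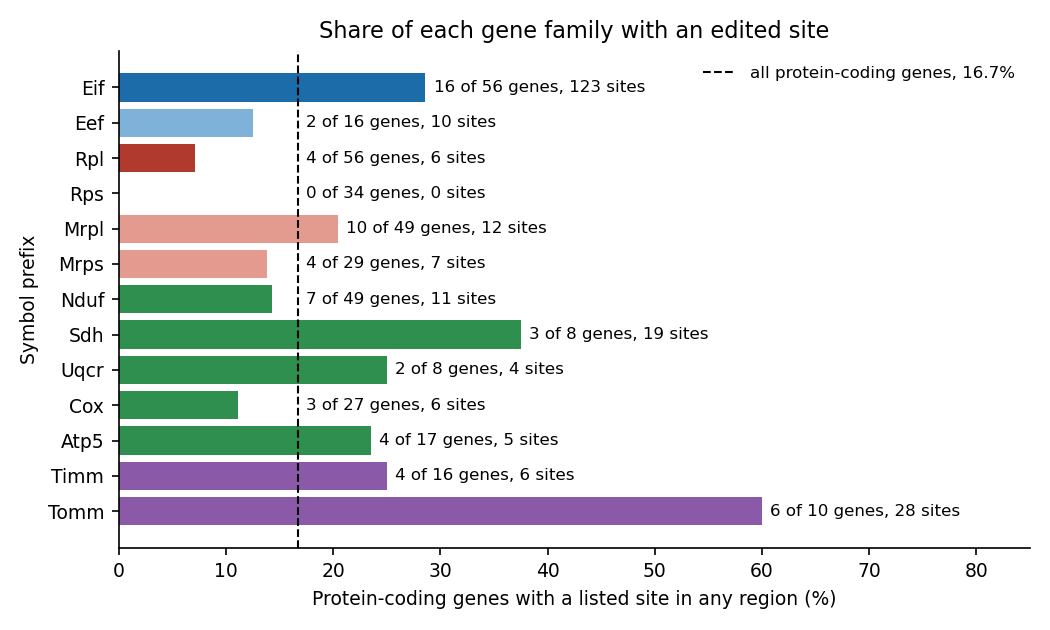
Share of the protein-coding reference genes of each symbol prefix with at least 1 listed site in any region (horizontal axis, percent), with the number of genes and sites beside each bar; colours mark the classes and the dashed line is the 16.7% of all protein-coding genes. Tomm (6 of 10 genes), Sdh (3 of 8), Eif (16 of 56), Uqcr (2 of 8), Timm (4 of 16), Atp5 (4 of 17) and Mrpl (10 of 49) lie above the line. Nduf (7 of 49), Mrps (4 of 29), Eef (2 of 16), Cox (3 of 27) and Rpl (4 of 56) lie below it, and Rps is at 0 of 34.

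Gene size did not follow the order of these shares throughout. The median genomic span was 18496.5 nt for initiation factor genes, 14104.5 nt for elongation factor genes, 8853 nt for the import machinery, 7394 nt for respiratory chain genes, 7690.5 nt for mitochondrial ribosomal proteins and 3169.5 nt for cytosolic ribosomal proteins, against 17146 nt for all protein-coding genes. The class with the shortest span thus had the lowest share, but the import machinery had the highest share at a span below that of elongation factors. The part of gene size and of expression in the shares was not tested. Ribosomal protein genes also have many processed copies in the genome, and how reads with several matches were treated is not stated in the labels.

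Listed members also had fewer sites each than the other listed genes. The median was 2 sites per gene over all regions against 3 for all listed genes, and the mean was 3.65 against 6.96. A single site was found in 32 of 65 members (49.2%), against 29.9% of all listed genes. At least 5 sites were found in 11 members (16.9%), against 39.9%. The initiation factors were nearest to the general picture, with a median of 3 sites and with 5 or more sites in 5 of 16 genes. Mitochondrial ribosomal proteins stood at the other end, with 11 of 14 genes at a single site.

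By region, the cortical list held 157 sites in 49 members, the hippocampal list 120 in 44 and the cerebellar list 115 in 38. The whole lists held 17878, 13461 and 11391 sites in the same order, so the lists themselves differ in size. Thus 75.4% of the members were listed in cortex, 67.7% in hippocampus and 58.5% in cerebellum. Over all 3731 genes these shares were 84.8%, 68.3% and 59.7%. The members were close to that background in hippocampus and cerebellum and lower in cortex. In all 3 regions 27 members (41.5%) were listed, against 43.1% of all genes. Cortex alone listed 13 members (20%, against 17.4% of all genes), hippocampus alone 7 (10.8%, against 5.23%) and cerebellum alone 6 (9.23%, against 7.75%). More sites in cerebellum than in cortex were found in 15 members (23.1%, against 21.5% of all genes) and fewer in 30 (46.2%, against 62%).

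Among the initiation factors, Eif1ax on chromosome X, which encodes the X-linked form of eIF1A, a factor of start codon scanning, carried most sites of any member. The cortical list held 42 of its sites, the hippocampal list 29 and the cerebellar list 18. These were 48 positions in all, or 39% of the initiation factor sites and 20.3% of all member sites. The sites ran over 4038 nt, from 4138 to 100 nt upstream of the annotated 3′ end, and 35 of the 48 had another listed site within 50 nt. Of the 18 cerebellar sites 14 (77.8%) were also listed in cortex, against 58.2% of all cerebellar sites. Of the 29 hippocampal sites 25 (86.2%) were, against 69.7% of all hippocampal sites. At 11 positions a level was given for all regions.

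Median levels in Eif1ax were 3.23% (cortex), 4% (hippocampus) and 4.36% (cerebellum), and 7 of the 48 positions reached 10% somewhere. Of the 14 positions shared by cortex and cerebellum, 7 were higher in cerebellum and 7 lower. Within that even split, single sites went far in either direction. The site at 159386598 had 4.26% in cortex, 4.35% in hippocampus and 14.8% in cerebellum. The site at 159388245 had 10.6%, 7.52% and 2.56% in the same order, and the site at 159385565 had 11.45%, 4.37% and 2.96%. The first of these was thus 3.46-fold higher in cerebellum than in cortex, and the others were 4.14-fold and 3.87-fold higher in cortex than in cerebellum. A site 793 nt from the 3′ end, at 159388828, was high in every list, with 9.09%, 13.4% and 12.7%. The autosomal copy Eif1a, on chromosome 18, had 3 sites in cortex and 2 each in hippocampus and cerebellum. Its 2 sites shared by all regions had 4.88%, 3.95% and 5.88%, and 6.25%, 3.23% and 8.33% in cortex, hippocampus and cerebellum, highest in cerebellum and lowest in hippocampus both times. Eif1a and Eif1ax are close copies in their coding parts, and reads that match both would be uncertain.

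Eif5a2, which encodes the less widely expressed form of eIF5A, the factor that helps ribosomes through difficult stretches, showed the opposite distribution over the regions. It had 17 sites in cerebellum, 3 in cortex and 0 in hippocampus. The cerebellar sites lay between 4230 and 343 nt from the 3′ end, at a median of 5.56% and with a range of 2.78% to 16.7%. The highest was at position 28798326 on chromosome 3. Cortical levels were 6.67%, 4.84% and 5.66%, and the last 2 of these sites were also listed in cerebellum, at 3.28% and 5.56%. All 18 positions also lie under the span of the predicted gene Gm32950, whose strand the reference table does not give. Eif5a, the common form, had 1 cortical site at 2.28%.

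**Figure D2:**
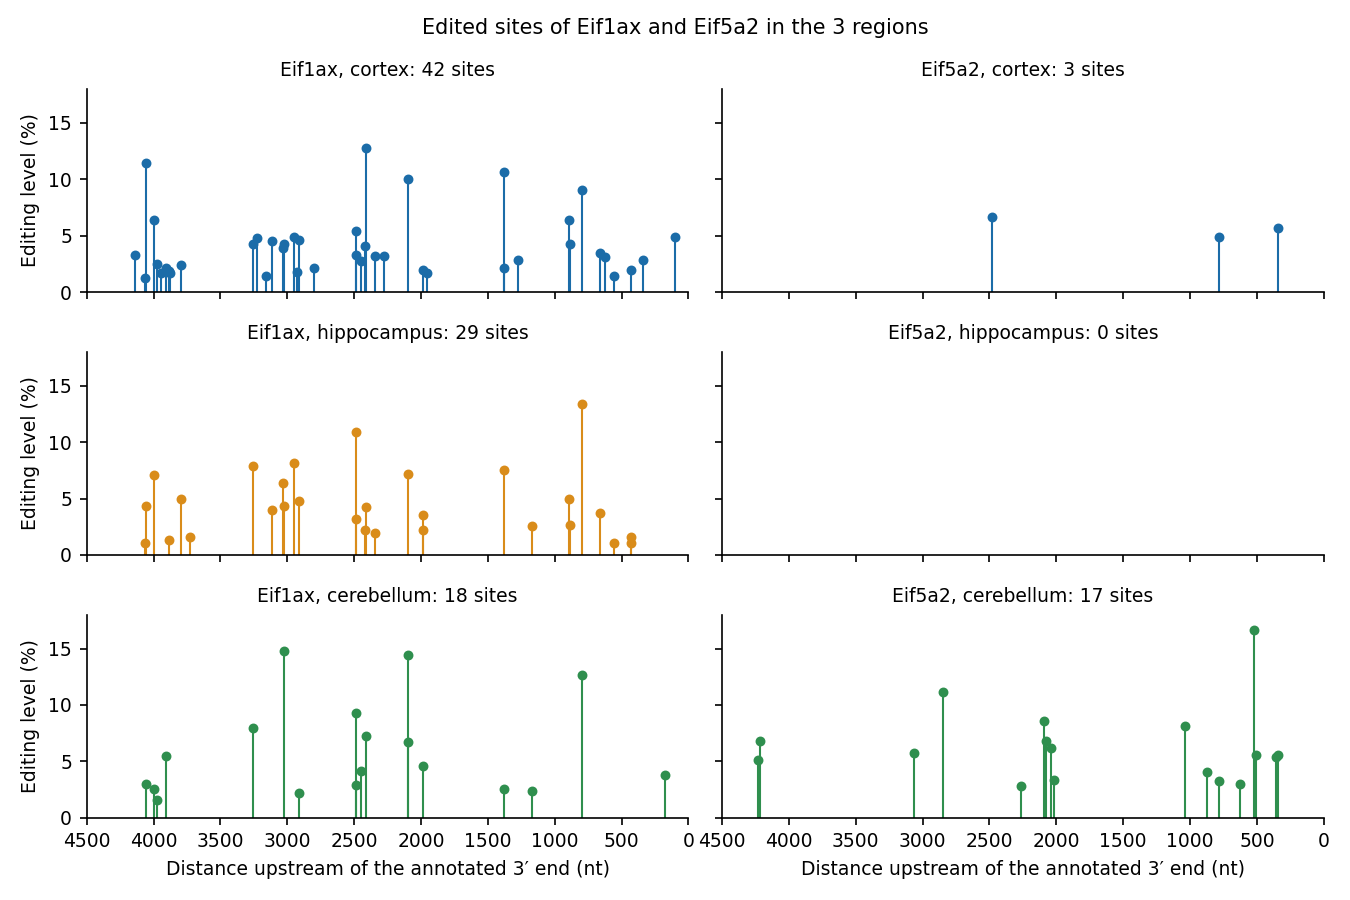
Editing level (vertical axis, percent) against the distance upstream of the annotated 3′ end (horizontal axis, nt) for every listed site of Eif1ax (left) and Eif5a2 (right), with cortex, hippocampus and cerebellum from top to bottom and 1 stem per site. Eif1ax has 42, 29 and 18 sites and Eif5a2 has 3, 0 and 17.

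Eif4g3, a scaffold of the cap-binding complex eIF4F, had 12 cortical, 9 hippocampal and 5 cerebellar sites. All but 1 of its 14 positions lay within 914 nt of the 3′ end, and the remaining cortical site, at 1.82%, lay 80952 nt upstream of it within the gene. All 5 cerebellar sites were also listed in cortex. At its 7 positions common to cortex and hippocampus the hippocampal level was lower each time, with medians of 3.33% and 2.20%. The site with the highest level, at 138206421 on chromosome 4, had 11.1% in cortex and 10.7% in hippocampus and was not listed in cerebellum.

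Eif5, the GTPase-activating factor of start codon recognition, was a member with more sites in cerebellum (11) than in cortex (7) or hippocampus (5). Its levels were low everywhere, with medians of 1.6%, 1.95% and 1.56% in cortex, hippocampus and cerebellum, and none above 3.72%. At 4 of its 5 positions common to cortex and cerebellum the cerebellar level was the higher, for example 1.44% and 2.48% at 111545035. Eif4g2, a relative of eIF4G that lacks the cap-binding part, had 4, 1 and 3 sites in cortex, hippocampus and cerebellum. Its site at 111071916 was listed everywhere, with 6.98%, 8.26% and 2.17%, which makes it 3.22-fold lower in cerebellum than in cortex, and the other Eif4g2 sites did not exceed 2.22%.

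The cap-binding protein gene Eif4e had a shared site (138555806, chromosome 3) with 3.2% in cortex, 1.61% in hippocampus and 7.27% in cerebellum, so that cerebellum was 4.52-fold above hippocampus. This was the largest ratio between any 2 regions at a member site. Eif4a2, an RNA helicase of eIF4F, had 2, 1 and 3 sites in cortex, hippocampus and cerebellum with levels from 1.17% to 3.33%, and its shared site had 2.07%, 1.17% and 2.62%. Eif4b, the helicase cofactor, was listed in hippocampus alone, with 3 sites at 1.2%, 2.42% and 2.01%. Eif2ak1, a kinase of eIF2 that is no initiation factor itself, had 3, 2 and 2 sites. The site at 143902093 had 8.62% in cortex, 5.94% in hippocampus and 4.35% in cerebellum. Another had 2.78% in cortex and 5.95% in hippocampus.

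The other initiation factor genes had 1 or 2 sites in a region at low levels. Eif3c, a subunit of the scaffold complex eIF3, had 1.56% in cortex and 3.12% in hippocampus at its site. Eif3a, the largest subunit of that complex, had 2 cortical sites at 1.77% and 2.83%. Eif4h had 1.27% in cortex and 1.66% in hippocampus, Eif4a1 a hippocampal site at 1.06% and Eif5b, a GTPase of subunit joining, a cerebellar site at 4%. No gene of the eIF2 (Eif2s) or eIF2B (Eif2b) subunits was listed, nor Eif6.

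**Figure D3:**
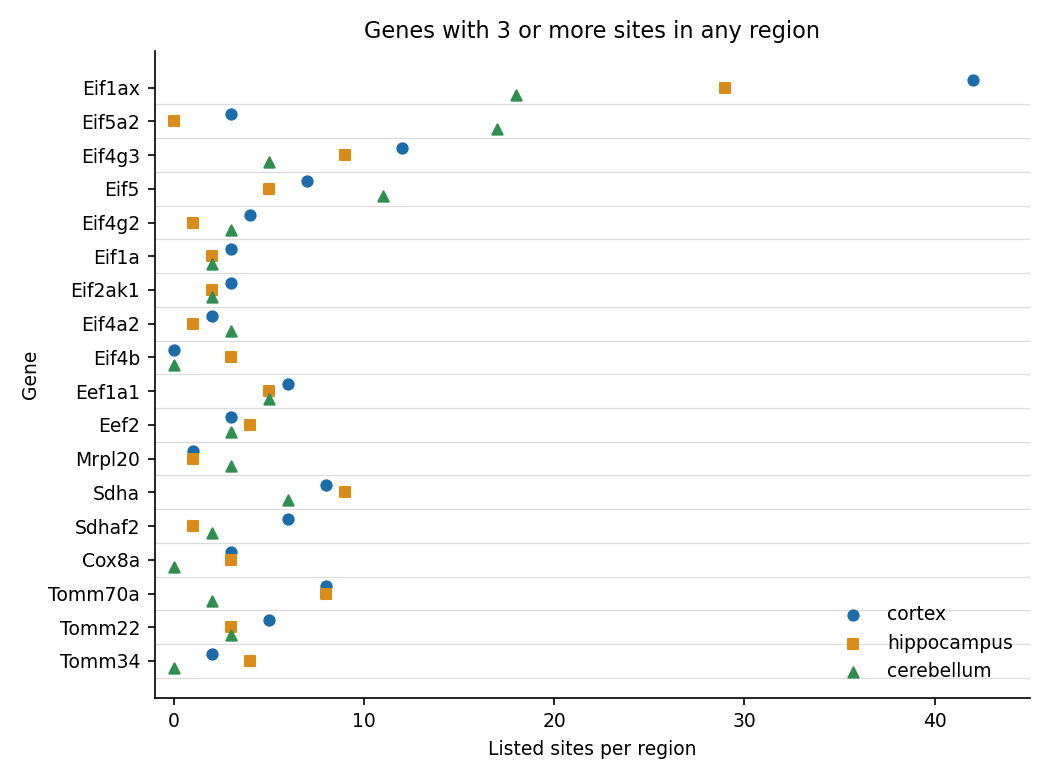
Number of listed sites (horizontal axis) per region for the 18 genes with 3 or more sites in any region, ordered by class and then by number; circles are cortex, squares hippocampus and triangles cerebellum. Eif1ax is farthest to the right in every region. The cerebellar symbol is to the right of the cortical one in Eif5a2 (17 against 3), Eif5 (11 against 7), Eif4a2 (3 against 2) and Mrpl20 (3 against 1).

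Elongation factor sites were mostly listed in every region. Eef1a1, which encodes the factor that delivers aminoacyl-tRNA to the ribosome, had 6 sites within 114 nt of each other near its 3′ end, and 5 of them were listed in all regions. At those 5 sites the hippocampal level was below the cortical one each time, and the cerebellar level was below it 4 times. The highest, at 78478509 on chromosome 9, had 5.62% in cortex, 2.79% in hippocampus and 4.13% in cerebellum. Eef2, the translocation factor, had 3 sites common to all regions and 1 in hippocampus alone. Its site at 81182183 on chromosome 10 had 13.3% in cortex, 13.3% in hippocampus and 10.1% in cerebellum, while the other Eef2 sites stayed between 1.05% and 2.02%. In all, 8 of 10 elongation factor positions (80%) were listed in every region, against 19.5% of initiation factor positions, 15.6% of respiratory chain positions and 19% of all listed positions. The elongation factor value rests on 2 genes. It leaves out Eif5a and Eif5a2, which count as initiation factors by symbol and had no position listed in every region.

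Cytosolic ribosomal proteins contributed 6 positions in 4 genes, all of the large subunit; none of the 34 Rps genes was listed in any region. Rpl29 had a single site, 77 nt from its 3′ end, with 12% in cortex, 11.4% in hippocampus and 10.3% in cerebellum (chromosome 9, 106431491). Rpl22 had a shared site with 5.22%, 3.39% and 4.71% and another in cerebellum at 2.6%. Rpl15 had different positions in cortex (2.63%) and hippocampus (2.63%), 63 nt apart, and Rpl5 had a cortical site at 4.44% that also lies under the span of Dipk1a. The 2 ribosomal positions listed everywhere were within 2-fold in every pair of regions. So were most shared sites of all genes: 84.5% for cortex and hippocampus, 72.9% for cortex and cerebellum, and 73.5% for hippocampus and cerebellum.

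Mitochondrial ribosomal protein genes mostly had a single site, but several of these sites had high levels. Mrpl19 had 21.9% in cortex, 10.6% in hippocampus and 6.45% in cerebellum at 81961871 on chromosome 6, which is 3.39-fold higher in cortex than in cerebellum. Mrpl20 was near constant at 155808755 on chromosome 4, with 14.1%, 17.2% and 13.0%, and had 2 further sites in cerebellum alone at 3.64% and 6.56%. Mrps27 was listed at different nucleotides: 99415142 on chromosome 13 had 9.68% in cortex and 11.9% in hippocampus, and a position 70 nt farther downstream had 28.9% in cerebellum alone. Mrps2 had 4.55% in cortex and 7.69% in hippocampus at one position and 8.57% in cerebellum 3 nt away. A further Mrps2 site had 5.26% in cortex and 7.32% in cerebellum.

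The other mitochondrial ribosomal protein sites were listed in 1 region each, except in Mrpl34 with 3.57% in cortex and 2.52% in cerebellum. Those of Mrpl12, Mrpl57, Mrpl58 and Mrps7 were in cortex, at 1.32% to 2.33%. Those of Mrpl41 (6.1%), Mrpl50 (4.88%) and Mrps17 (5.26%) were in hippocampus, and those of Mrpl9 (5%) and Mrpl43 in cerebellum. Mitochondrial ribosomal proteins had the highest median level of the classes in hippocampus, 7.69% over 7 sites against 2.82% for all hippocampal sites, and in cerebellum, 6.5% over 10 sites against 3.36%. In cortex their median was 4.06% over 10 sites against 2.91%, below the 4.83% of the 4 ribosomal sites. Their lowest listed level was 4.88% in hippocampus, 2.52% in cerebellum and 1.32% in cortex, while the lists start at 1%. The part of read depth in these medians was not tested.

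Among the import genes, Tomm70a, a receptor of the outer membrane for precursor proteins, had 8 cortical, 8 hippocampal and 2 cerebellar sites. At 57152757 on chromosome 16 it reached 18.8% in cortex, 16.6% in hippocampus and 8.23% in cerebellum, 2.29-fold higher in cortex than in cerebellum. A second site, 57153143, had 10.3% in cortex and 9.09% in hippocampus and was not listed in cerebellum. At 5 of its 6 positions common to cortex and hippocampus the hippocampal level was the lower; the exception, 57152788, had 3.47%, 7.17% and 3.57% in cortex, hippocampus and cerebellum. Tomm22, the central receptor of the TOM complex, had 5, 3 and 3 sites, and both of its sites listed everywhere were lower in cerebellum than in cortex (3.74%, 3.8% and 1.3%, and 5.29%, 2.53% and 2.63% in cortex, hippocampus and cerebellum). Tomm34, a cytosolic chaperone cofactor, had 2 cortical and 4 hippocampal sites and none in cerebellum, and its shared site had 3.75% in cortex and 7.96% in hippocampus.

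Timm29, a subunit of the inner-membrane carrier translocase, went the other way. Its only site, 21595126 on chromosome 9, had 6.06% in cortex, 6.02% in hippocampus and 15.9% in cerebellum, 2.63-fold above cortex. Timm8b, a small chaperone of the space between the membranes, had 1.08% in cortex and 2.3% in hippocampus. Timm13, another of these small chaperones, had 1.4% in hippocampus and 2.38% in cerebellum. Timm17a, a channel subunit, had levels of 1.22% to 3.03%, Tomm20 of 1.45% to 3.57% at 4 positions listed in 1 region each, and Tomm40l of 3.18% to 4.76%. Tomm5 had a cortical site at 8.82%.

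In the respiratory chain, the sites were few per gene outside complex II. Sdha, the flavoprotein of succinate dehydrogenase, had 8 cortical, 9 hippocampal and 6 cerebellar sites within 821 nt of its 3′ end, with medians of 2.47%, 1.9% and 2.03%. The largest ratio among them, 3.09-fold between cortex and hippocampus, was at 74322315 on chromosome 13, with 5.88% in cortex, 1.9% in hippocampus and 3.31% in cerebellum. Sdhaf2, which helps attach the flavin to Sdha, had 6 cortical sites, 1 hippocampal and 2 cerebellar, and the hippocampal position was not among the others. Its highest site, 10502888 on chromosome 19, had 8.16% in cortex and 8.7% in cerebellum. Sdhaf1 had a cortical site at 5.17%.

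Complex I genes with low levels were Ndufa8 with 3 positions at 1.25% to 1.83%, Ndufs1 at 1.94% to 2.56%, Ndufa9 at 4.76% and Ndufa12 at 2.86% in hippocampus, Ndufa10 at 1.9% in cortex and Ndufv2 at 1.9% in cerebellum. The Ndufs1 sites also lie under the antisense-named gene Ino80dos.

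Complexes III to V had 15 positions in 9 genes, none above 3.33%. Uqcr11, a small subunit of complex III, had 3.33% in cortex, 1.64% in hippocampus and 3.29% in cerebellum at its shared site, and Uqcrfs1, the Rieske iron-sulfur protein, a cerebellar site at 3.03%. Cox8a, a small subunit of complex IV, had the same 3 sites in cortex (1.83%, 2.28% and 1.77%) and hippocampus (1.68%, 2.25% and 1.12%) and none in cerebellum. Cox14, an assembly factor, had 2 cortical sites and Cox7a2l, which takes part in joining complexes III and IV, 1 site with 2.33% in hippocampus and 2.47% in cerebellum. The 4 ATP synthase genes Atp5a1, Atp5g3, Atp5mpl and Atp5pb had 5 positions at 1.03% to 1.47%, all within 93 nt of the 3′ end. These are among the lowest levels that the lists hold.

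The classes also differed in where their sites lay, a feature that the symbols did not use. Distances were measured along the genome to the annotated 3′ end of the gene span. The median distance was 203 nt for respiratory chain sites, 157.5 nt for elongation factor sites, 529 nt for mitochondrial ribosomal protein sites, 697.5 nt for import sites, 1075.5 nt for cytosolic ribosomal protein sites and 1761 nt for initiation factor sites, against 1519 nt for all listed sites. With 1 median per gene, the values were 191 nt for respiratory chain genes, 998.8 nt for cytosolic ribosomal protein genes, 1604.8 nt for initiation factor genes and 1193 nt for all genes. Within 250 nt of the end lay 26 of 45 respiratory chain sites (57.8%) and 7 of 10 elongation factor sites (70%), but 6 initiation factor sites (4.88%), against 7.94% of all sites. Without Eif1ax the initiation factor median was 1409 nt. No test was made of this contrast, since sites of a gene are not independent, and the median gene span, given above, was also larger for initiation factors than for respiratory chain genes, while cytosolic ribosomal protein genes had the shortest span and a longer distance than respiratory chain genes. Its part in the contrast was not tested. The lengths of 3′ untranslated regions were not used here.

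**Figure D4:**
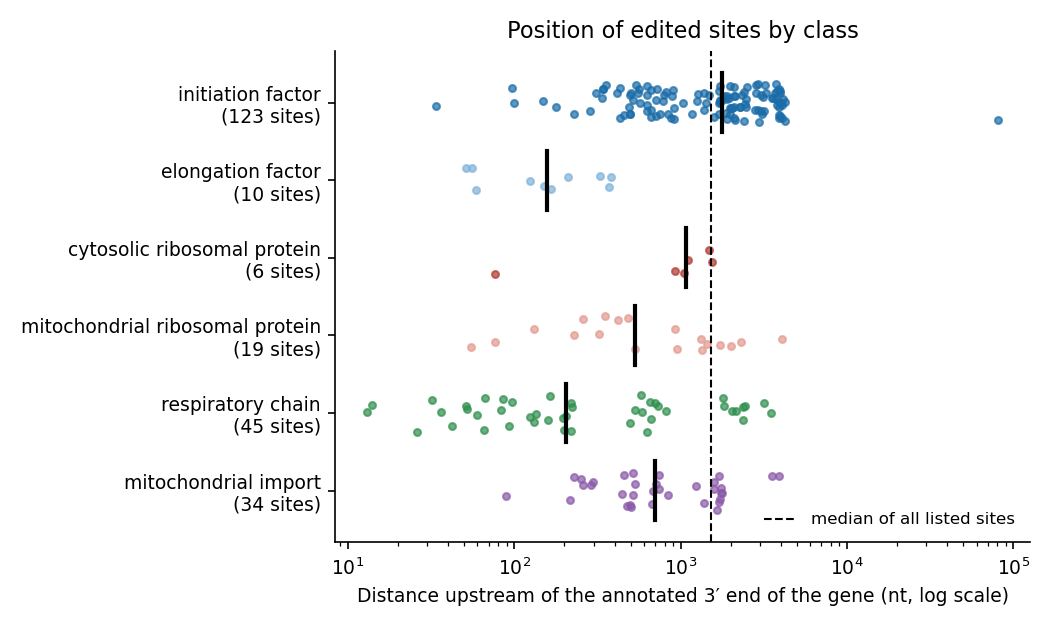
Distance from each listed member site to its gene's annotated 3′ end (horizontal axis, nt, log scale) by class; points are sites, black bars are class medians and the dashed line is the median of all listed sites, 1519 nt. Respiratory chain and elongation factor points lie mostly left of the line, with medians of 203 and 157.5 nt, and initiation factor points on both sides of it, with a median of 1761 nt.

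Levels as a whole were like those of other genes. Member medians were 2.86% (cortex), 2.68% (hippocampus) and 3.23% (cerebellum), against 2.91%, 2.82% and 3.36% for all sites. Initiation factor sites had 2.85%, 2.67% and 3.33%, and respiratory chain sites 2.31%, 1.96% and 2.47%. At 10% or more in any region were 21 member sites (8.86%) in 11 genes, against 7.69% of all sites. Of these, 7 were in Eif1ax others were in Eef2, Eif4g3, Eif5a2, Mrpl19, Mrpl20, Mrps27, Rpl29, Timm29 and Tomm70a. The 15 positions of complexes III to V had none at this level.

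The regions were then compared at sites listed at the same nucleotide. Cortex and hippocampus shared 85 member sites, which were 54.1% of the cortical and 70.8% of the hippocampal ones. Cortex and cerebellum shared 63 (40.1% and 54.8%), and hippocampus and cerebellum 56 (46.7% and 48.7%). For all genes these pairs of shares were 52.5% and 69.7%, 37.1% and 58.2%, and 42.3% and 49.9%. The members' shares were thus close to that background.

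At these sites the cortical level was more often the higher. It exceeded the hippocampal level at 54 of 85 sites, with a median log2 ratio of hippocampus to cortex of -0.18 against -0.02 for all shared sites, and exceeded the cerebellar level at 38 of 63, with a median of -0.20 for cerebellum to cortex against 0.06. Initiation factors did not share the latter: of their 32 sites common to cortex and cerebellum 16 were higher in cerebellum and 16 lower, with a median of 0.02. With 1 value per gene, the median for hippocampus to cortex was -0.01, while that for cerebellum to cortex was -0.21. For cerebellum to hippocampus the median was 0.07 against 0.04, and 31 of 56 sites were higher in cerebellum, against 2951 of 5688. The 3 comparisons share their lists, so they are not independent of each other.

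Differences of 2-fold or more were about as frequent as in other genes, except that fewer sites were higher in cerebellum than in cortex. From cortex to hippocampus, 6 of 85 member sites were 2-fold or more higher (7.06%, against 7.37% of all shared sites) and 9 were 2-fold or more lower (10.6%, against 8.17%). From cortex to cerebellum, 4 of 63 were higher (6.35%, against 15.1%) and 10 lower (15.9%, against 12.0%). From hippocampus to cerebellum, 8 of 56 were higher (14.3%, against 15.2%) and 7 lower (12.5%, against 11.4%). The 4 sites above cortex in cerebellum were in Eif1ax, with 2, Eif4e and Timm29. The 10 sites below it were in Eif1ax, with 4, Tomm22, with 2, Eef1a1, Eif4g2, Mrpl19 and Tomm70a. The 10 respiratory chain sites shared by cortex and cerebellum were all within 2-fold, as were 72.9% of all sites shared by this pair. They lay in 4 genes, with 5 of the 10 in Sdha and 2 in Sdhaf2.

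**Figure D5:**
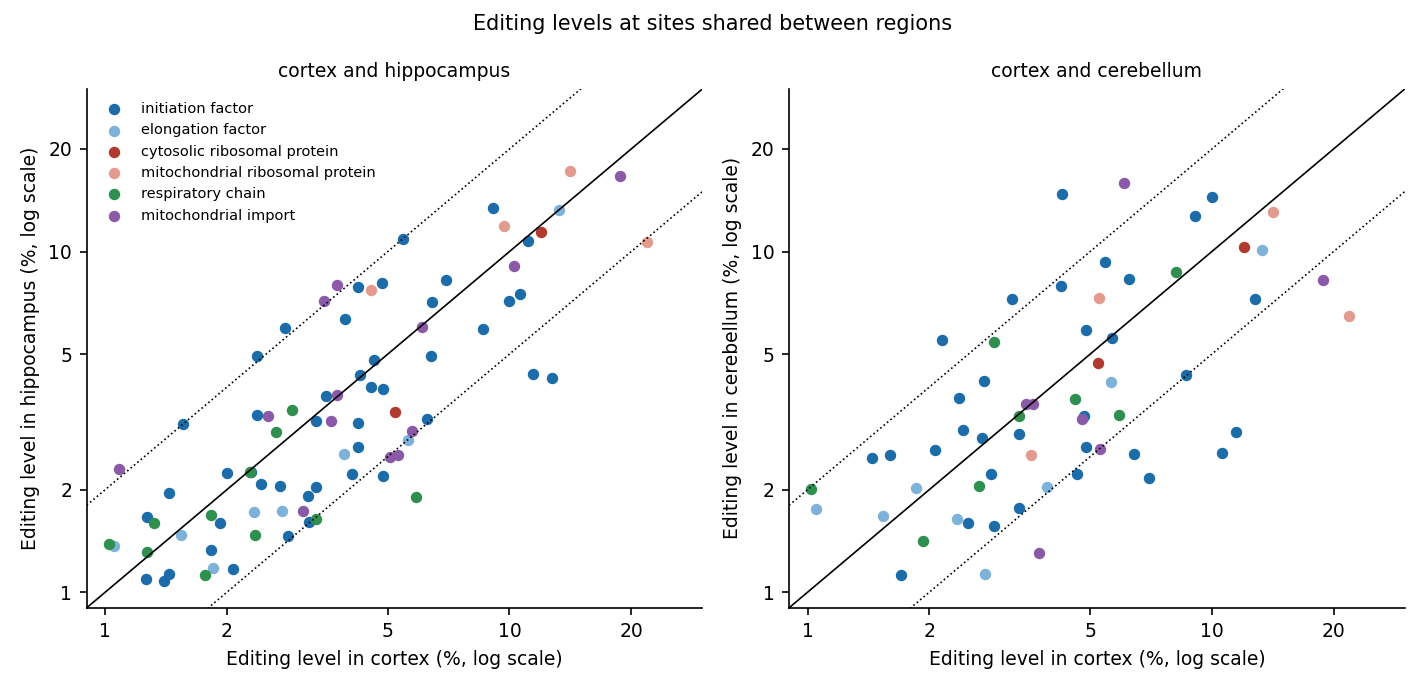
Editing level in hippocampus (left) or cerebellum (right) against the level in cortex at sites listed in both and under 35% in each (percent, log scales), 1 point per site coloured by class; the solid line marks equal levels and the dotted lines 2-fold differences. In the cerebellar panel 10 points lie on or below the lower dotted line and 4 on or above the upper.

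Other genes of the same pathways were described from 2 lists of genes outside the symbols above. Of 56 genes of translation control (kinases, mTOR pathway, RNA-binding regulators and release factors), 24 (42.9%) had a site in any region, with 42 cortical, 26 hippocampal and 28 cerebellar sites. Those with most sites were Mtor, the growth-control kinase (6, 3 and 4 sites in cortex, hippocampus and cerebellum), Pum2 (7, 5 and 1), Cyfip2 (4, 6 and 5), the ribosomal S6 kinase genes Rps6ka3 (3, 0 and 3) and Rps6kb1 (1, 3 and 1), and Larp1 (2, 3 and 2), a regulator of ribosomal protein messages. Of 55 genes of mitochondrial biogenesis, dynamics and oxidation, 20 (36.4%) had a site, with 78, 68 and 74 sites. Among them were the fission GTPase gene Dnm1l (19, 13 and 20), the pyruvate dehydrogenase gene Pdha1 (9, 13 and 9), the complex III assembly gene Ttc19 (10, 9 and 1), the fusion gene Mfn2 (8, 5 and 7) and the citric acid cycle genes Cs (3, 2 and 6) and Idh3a (4, 3 and 4). Both lists were chosen with results of these data known, so their shares are not compared with those of other genes.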

How the data were processed

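Poly(A) RNA-seq libraries were made from 900 ng of total RNA with a directional kit, per the labels' protocols, and aligned with STAR 2.7.5 to mm10, per the submitters' processing notes. Site caller, thresholds and depth minimum were not given in the sources used here. The authors deposited 1 headerless list per region with chromosome, start, end, gene symbol, a fraction and the strand. The deposited fraction, from 1% upward, was taken as a region's editing level over its APOBEC1-YTH libraries together, which is an assumption, and multiplied to percent. Libraries were grouped by the labels' tissue and genotype.

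Positions are the end column, read as 1-based. All 65 member symbols matched RefSeq's gene table for GRCm38.p6, a release of mm10's assembly. That table gave the spans, and the windows of 300 nt came from RefSeq promoters of the same build. A site was shared when chromosome, position and strand were identical. No test was run: the design has 1 pooled value per region, unknown depth and no replicate values. Medians and counts were computed with Python 3.11.15, numpy 2.4.6, pandas 2.3.3 and scipy 1.17.1, after a check of the functions on simulated data.

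Members and lists were chosen with earlier results of these data known. Values of every region are given for members with 3 or more sites in a region, a site of 10% or more, or a shared site differing 2-fold, and the gene with the most sites of each prefix is named; the others are named with their levels. Up to 6 genes per pathway list are named, by number of sites. The values of 1 member are not reported here, though it stays in all counts and medians.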

Additional observations from a re-analysis of the deposited data

How the results depend on the processing

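Of 60 alternative values, 43 stayed within the limits used (1.5 times for a count, the exact 95% binomial interval for a share or a median) and 17 did not. These intervals treat sites as independent, which sites of a transcript are not. For the 6 cytosolic ribosomal protein sites the interval spans their whole range. The 43 values are therefore no measure of stability. With levels under 10% left out, member sites numbered 13 (cortex), 11 (hippocampus) and 12 (cerebellum), and sites numbered 10 in initiation factor, 1 in cytosolic ribosomal protein and 2 in respiratory chain genes, in 3, 1 and 1 genes; the median distance from the 3′ end was then 2254 nt for initiation factor and 3314.5 nt for respiratory chain sites, the latter from 1 gene, and could not be given for the single ribosomal site. With 2 or more sites required, 2 ribosomal and 9 respiratory chain genes were listed. Without Eif1ax, an alternative chosen after seeing the data, as were all those on distance, initiation factors had 75 sites. With sharing within 50 nt, hippocampus listed 68.8% and cerebellum 58% of cortical member sites, and cerebellum 62.5% of hippocampal ones. Merging sites within 10 nt left 127 of 131 gene and region counts within 1.5 times, and leaving out sites at 35% or more left 128. Both outcomes were largely fixed in advance. Merging cannot change the 32 of 65 members with a single site, and few member sites reach 35%. The median log2 ratios kept their sign, down to -0.01 for hippocampus to cortex with 1 value per gene. No paired analysis was possible because the lists pool the animals of a region. Depth is unknown, and its limit on low levels could not be given.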
